A study of Mus musculus with 6 samples.

Results

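The 10 genes described here encode heat shock proteins and their partners in protein folding: Hspa1a and Hspa1b (inducible Hsp70), Hspa8 (constitutive Hsp70), Hsph1 (Hsp110), Dnajb1 (an Hsp40), Hsp90aa1 and Hsp90ab1 (cytosolic Hsp90), Hspb1 (a small heat shock protein), and Hspd1 and Hspe1 (the mitochondrial chaperonin Hsp60 and its lid Hsp10). They were chosen by name, and each name matched 1 of the 47729 genes in the expression files. All 10 passed the filter on low counts and were among the 17668 genes tested. Their RNA was measured by RNA sequencing in brown adipose tissue (BAT) of 3 mice fed a high-fat diet (HFD) and 3 mice fed a low-fat diet (LFD). All mice were male wild-type C57BL/6J animals that were 6 weeks old at the start of feeding and 10 weeks old at its end. The labels name a 45% high-fat diet for the HFD-fed mice and a standard rodent chow for the others, which the study calls the LFD. By the study's methods the mice lived in single cages, the right part of the interscapular depot was used, and the animals for sequencing were picked by fat mass so that the extremes of each diet were included. A difference between diets in such whole tissue can come from the share of a cell type or from the RNA in each cell, and these cannot be told apart.

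Heat shock proteins bind unfolded or partly folded proteins. Hsp70 takes up a client with the help of an Hsp40, which stimulates its ATPase, and releases it when a nucleotide exchange factor such as Hsp110 removes ADP, while Hsp90 acts later on clients that are close to their native fold, such as steroid receptors and kinases. Heat shock factor 1 drives the inducible genes by binding heat shock elements, which are inverted repeats of the letters GAA, and its stimuli include heat and oxidants. BAT produces heat by uncoupled respiration in its many mitochondria, where Hsp60 and Hsp10 fold imported proteins.

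The rounded counts of a mouse summed to between 17156991 and 21603487. Mitochondrially encoded genes took 3.87% to 22.7% of them, with the highest share in mouse 1 and the lowest in mouse 3 of both diets. All 12 brown adipocyte markers were above 0 in every mouse. Ucp1, the uncoupling protein of BAT, was at 796 to 4021 TPM under the HFD and 11.0 to 443 TPM under the LFD (log2 fold change 3.67, adjusted p = 0.480 by edgeR). Fabp4, the most abundant of these markers, was at 3664 to 5014 TPM under the HFD and 2624 to 8136 TPM under the LFD (-0.35, adjusted p = 0.937 by edgeR). TPM is a count divided by gene length and scaled to a fixed total per mouse. The 12 skeletal muscle markers summed to 7.41 to 182 TPM in HFD-fed and 1820 to 12308 TPM in LFD-fed mice, and all 12 were lower in each HFD-fed mouse than in any LFD-fed mouse. Only Myh7 of these 12 was listed at 0, in HFD mice 2 and 3. The 12 T and NK cell markers summed to 15.4 to 48.2 TPM in HFD-fed and 1.99 to 14.7 TPM in LFD-fed mice, with none at 0. The sums overlapped between diets for 12 macrophage markers (1999 to 4150 and 638 to 4615 TPM), 8 endothelial markers (122 to 532 and 152 to 307 TPM), 12 brown adipocyte markers (6232 to 13544 and 3626 to 13200 TPM) and 6 white adipocyte markers (97.5 to 336 and 288 to 1906 TPM), with none at 0. By gene, 9 of the 12 brown adipocyte markers had a log2 fold change above 0 (median 1.35), and Adipoq (-1.19), Plin1 (-0.78) and Fabp4 were below 0. Above 0 were also 9 of 12 macrophage (median 0.41), 7 of 8 endothelial (median 0.84) and 1 of 6 white adipocyte markers (median -0.75). All 11 tested T and NK cell markers were above 0 (median 2.28). On log2 CPM, defined below, 9 T and NK cell, 2 brown adipocyte, 3 macrophage and 1 endothelial marker were higher without overlap between diets. Of all tested genes, 45.6% were above 0, 6.72% were higher without overlap and 9.23% lower without overlap, as all 12 skeletal muscle markers were. The part of these cell types in the results below was not tested.

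The genes lie at 8 places in the mouse genome (GRCm38, positions of the GENCODE M21 annotation). Hspa1a (chr17:34969190-34972156) and Hspa1b (chr17:34956436-34959238) are neighbours on the minus strand with 9951 bases between them. Hspd1 (chr1:55077835-55088243, minus strand) and Hspe1 (chr1:55088132-55091307, plus strand) stand head to head and share 112 bases, so that without the strand of the reads a few counts could belong to either. Hspa8 (chr9:40800984-40810087, plus strand) hosts the small nucleolar RNAs Snord14c, Snord14d and Snord14e. The others are Hsp90aa1 (chr12:110690605-110702728, minus strand), Hsp90ab1 (chr17:45567775-45573271, minus strand), Hspb1 (chr5:135887919-135889563, plus strand), Hsph1 (chr5:149614287-149636376, minus strand) and Dnajb1 (chr8:83608193-83612653, plus strand).

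Because the inducible members are known to share heat shock elements, the 250 bases before the transcription start were searched for GAANNTTC and TTCNNGAA, which each read the same on both strands. These upstream sequences came from RefSeq (GRCm38.p6), which had entries for 7 of the 10 members, namely Hspa1a, Hspa1b, Hspb1, Hsph1, Dnajb1, Hspd1 and Hspe1. Either motif was found for 14.5% of all 27025 genes and for 6 of the 7 members, or in 12.8% of all 32851 upstream windows of that length and in 7 of the 10 windows of the members. Neither of the 2 windows of Dnajb1 and only 1 of the 2 windows of Hspd1 held it. The motif GAANNTTCNNGAA or its partner TTCNNGAANNTTC, which contains both shorter motifs in overlap, was in 0.466% of all windows and, among the members, in a stretch just upstream of Hspe1 that holds both. This stretch lies within the annotated Hspd1 gene, in an exon of its transcript Hspd1-202, and is upstream of the inner of the Hspd1 starts. The upstream windows of Hspa1a and Hspa1b were identical at 247 of 250 bases. The stretches around the matches are shown 5′ to 3′ on the strand of the gene, with the matched letters in capitals, because heat shock elements are built from such repeats. The search took exact matches only, so neither a match nor its absence settles whether a gene carries an element. The stretch of Hspa1a is chr17:34972237-34972276 and that of Hspa1b chr17:34959319-34959358, both on the minus strand with the match starting 104 bases before transcription. That of Hspb1 is chr5:135887786-135887845 on the plus strand, that of Hsph1 chr5:149636351-149636380 on the minus strand, and that of Hspe1 chr1:55088053-55088082 on the plus strand, where Hspd1 reads the other strand. The Hsph1 stretch overlaps exons of its annotated transcripts Hsph1-203 and Hsph1-206. Its match was counted in both Hsph1 windows, 33 and 54 bases before their starts.
Hspa1a: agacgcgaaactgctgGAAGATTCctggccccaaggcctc
Hspa1b: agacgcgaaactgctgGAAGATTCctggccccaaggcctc
Hspb1: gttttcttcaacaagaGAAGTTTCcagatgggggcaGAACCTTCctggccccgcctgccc
Hsph1: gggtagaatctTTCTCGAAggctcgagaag
Hspe1: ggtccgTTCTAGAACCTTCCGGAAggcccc
Hspa1a and Hspa1b carried the same letters throughout, Hspb1 had 2 separate matches and Hspe1 a run of overlapping ones. A match is a description of the letters and says nothing of whether a factor was bound in BAT.

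Hspa8 and both cytosolic Hsp90 genes were abundant RNAs of the tissue. Hspa8 ranked between 20 and 107 among all genes by TPM in the 6 mice, Hsp90ab1 between 78 and 142, and Hsp90aa1 between 126 and 419. By mean TPM over the 6 mice the order was Hspa8 (1744), Hsp90ab1 (730), Hsp90aa1 (421), Hspd1 (250), Hspe1 (166), Hspb1 (84.5), Hsph1 (32.7), Dnajb1 (18.6), Hspa1b (17.3) and Hspa1a (12.1). Each gene was above the next in all 6 mice except for Hspd1 over Hspe1 and Dnajb1 over Hspa1b, which held in 5 of 6. Over all mice, the ranges of neighbours overlapped apart from Hspe1 against Hspb1 and Hspb1 against Hsph1. The 10 genes together took 0.294%, 0.371% and 0.556% of the counts in HFD mice 1 to 3 and 0.207%, 0.214% and 0.252% in LFD mice 1 to 3, with no overlap between diets. Their summed TPM of 2697, 4101 and 5635 in HFD mice 1 to 3 and 2293, 2753 and 3373 in LFD mice 1 to 3 did overlap. Hspa8 alone made up 34.6% to 59.5% of their summed TPM.

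The inducible Hsp70 genes stood at the other end. The highest TPM of Hspa1a over the 6 mice was 41.1 times the lowest, and that of Hspa1b was 49.4 times the lowest, whereas this ratio lay between 1.58 and 4.23 for the other 8 members. Much of this range lay within a diet. Within the HFD the Hspa1a value of mouse 3 was 12.2 times that of mouse 1, and within the LFD it was 6.02 times.

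For the comparison of the diets the rounded counts of all genes were tested with edgeR's quasi-likelihood test. Calls required a log2 fold change beyond 1.5 in either direction together with an adjusted p below 0.01. None of the 10 members was called, beside 0% of the 17668 tested genes, and DESeq2 called 0 members as well, beside 2.06% of the genes it gave an adjusted p. At an unadjusted p under 0.05, 6 members passed, all higher in HFD-fed mice (Hspa1a, Hspa1b, Hspa8, Hsp90aa1, Hsph1 and Dnajb1), beside 3.86% of all tested genes higher and 6.62% lower. This count was 3 when HFD mouse 2, HFD mouse 3 or LFD mouse 2 was left out, and 1 (Hsph1) with limma on log2(TPM + 1). All 10 log2 fold changes were above 0, with a median of 0.84 against -0.05 for all tested genes. In 5 members the 3 HFD values of log2 CPM all lay above the 3 LFD values (Hspa1a, Hspa8, Hsp90aa1, Hsph1 and Dnajb1), beside 6.72% of all tested genes above and 9.23% below. Log2 CPM is the TMM-normalised count relative to the library size, on a log2 scale. On TPM, which is scaled to a fixed total without TMM, 1 member (Hsph1) was without overlap, beside 1.65% of all tested genes. At an adjusted p under 0.05 without a limit on the fold change, edgeR passed 0 members and DESeq2 passed 3 (Hsph1, Hspa1a and Hspa8), beside 1.13% of its genes in that direction. When the replicate number entered edgeR as a block, 7 members passed an unadjusted p of 0.05, all higher in HFD-fed mice, beside 8.75% of all tested genes, and Hspa1b alone passed an adjusted p of 0.05, beside 1.04%. Both scales are given for each member below because they order some mice differently.

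**Figure D1:**
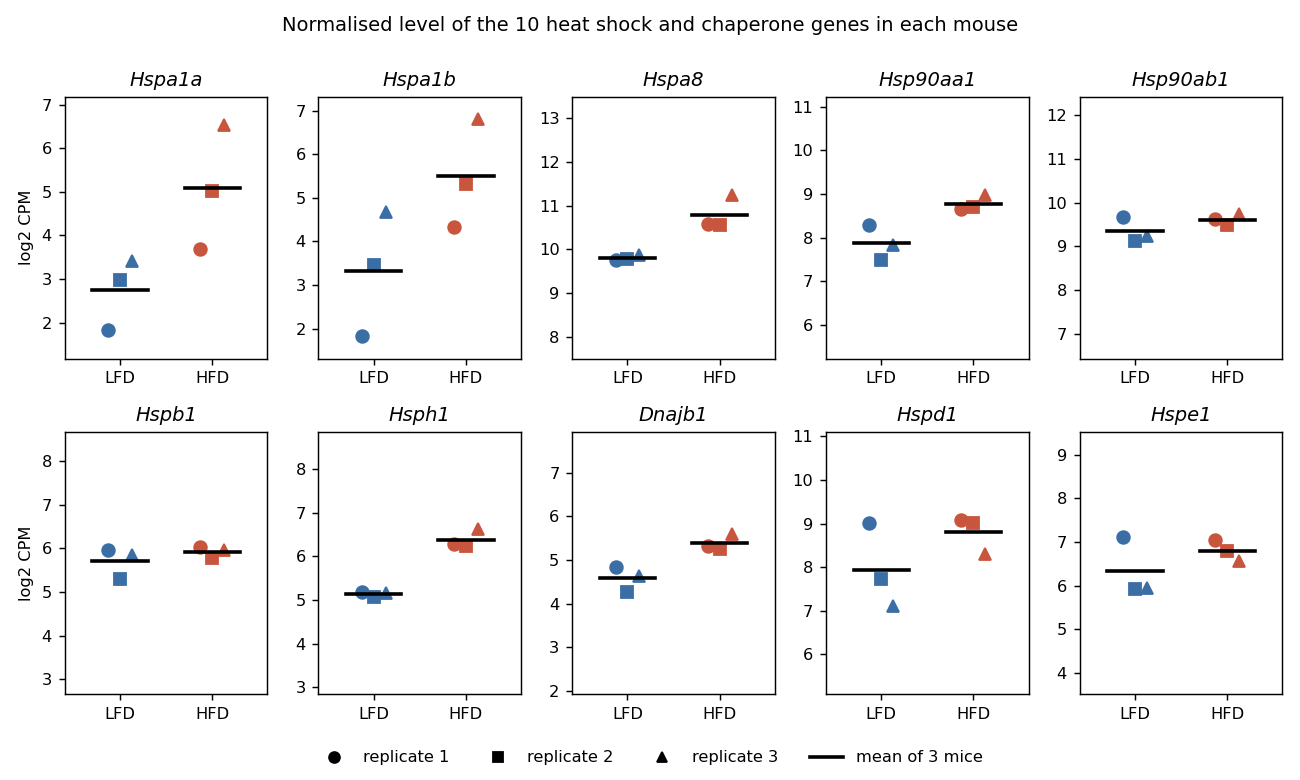
Log2 CPM of each of the 10 genes (vertical axis, spanning 6 units in every panel) in 3 LFD-fed and 3 HFD-fed mice, with the replicate number as the symbol and the mean of each diet as a bar. Hspa1a and Hspa1b spread widely within both diets, while Hspa8 and Hsph1 form a tight LFD group below all HFD-fed mice.

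Hspa1a and Hspa1b encode nearly the same protein, the stress-inducible cytosolic Hsp70, which is scarce in unstressed cells. Hspa1a was at 3.53, 14.7 and 43.1 TPM in HFD mice 1 to 3 and at 1.05, 4.06 and 6.32 TPM in LFD mice 1 to 3. Hspa1b was at 5.91, 19.1 and 55.4 TPM in HFD mice 1 to 3 and at 1.12, 6.08 and 15.9 TPM in LFD mice 1 to 3. Mouse 3 was the highest and mouse 1 the lowest of both diets for both genes, and the diets overlapped on TPM because HFD mouse 1 lay below LFD mice 2 and 3 in each gene. On log2 CPM, Hspa1a was 5.08 ± 1.43 under the HFD and 2.74 ± 0.82 under the LFD (SD, n = 3), with no overlap, since HFD mouse 1 (3.68) was above LFD mouse 3 (3.43). Hspa1b was 5.49 ± 1.25 and 3.32 ± 1.43 (SD, n = 3), and HFD mouse 1 (4.33) was below LFD mouse 3 (4.67). Hspa1a had a log2 fold change of 2.65 (SE 0.777, 95% interval 0.80 to 4.50, adjusted p = 0.312 by edgeR) and Hspa1b of 2.11 (SE 0.864, 95% interval 0.05 to 4.17, adjusted p = 0.467 by edgeR). Without HFD mouse 3 these became 1.63 and 1.18. With the replicate number as a block they were 2.37 (SE 0.313, adjusted p = 0.0537 by edgeR) and 2.17 (SE 0.209, adjusted p = 0.0306 by edgeR), with smaller errors than without the block.

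The counts behind these genes were low and partly shared. LFD mouse 1 had 54 counts for each of them, and HFD mouse 3 had 2163 for Hspa1a and 2621 for Hspa1b. Of all stretches of 75 bases (the read length) in the Hspa1a transcript, 61.7% also occurred in transcripts of other genes, mostly Hspa1b, and RSEM's own posterior SD of the count reached 10.6% of the count for Hspa1a and 10.2% for Hspa1b in LFD mouse 1. The split between the 2 genes is therefore uncertain. Gm10501 also shares stretches with both, and held 7 to 47 counts per mouse, which was 1.66% to 55.6% as many as Hspa1a, so that their sum depends on the division of reads too. As a sum they stood at 9.44, 33.8 and 98.5 TPM in HFD mice 1 to 3 and at 2.17, 10.1 and 22.2 TPM in LFD mice 1 to 3. Counted as 1 gene, their log2 fold change was 2.33 (SE 0.825, adjusted p = 0.399 by edgeR), between those of the single genes.

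Hspa8 encodes Hsc70, the Hsp70 that all cells make without stress and that also uncoats clathrin vesicles. It was at 1272, 1998 and 3352 TPM in HFD mice 1 to 3 and at 793, 1359 and 1692 TPM in LFD mice 1 to 3. HFD mouse 1 lay within the LFD range on this scale. On log2 CPM it was 10.57, 10.57 and 11.24 in HFD mice 1 to 3 and 9.76, 9.77 and 9.87 in LFD mice 1 to 3, with no overlap, and the LFD-fed mice differed by little among themselves (9.80 ± 0.062, SD, n = 3). Hspa8 had a log2 fold change of 1.03 (SE 0.395, 95% interval 0.09 to 1.97, adjusted p = 0.438 by edgeR), a fold of 2.04. Of its transcript stretches of 75 bases, 33.0% occurred in other genes, and the near copy Gm26825 took between 0.296% and 8.45% as many counts as Hspa8.

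Hsph1 encodes Hsp110, the exchange factor that releases ADP from Hsp70, and it was the member with the most even difference. Its level was 29.4, 44.6 and 59.1 TPM in HFD mice 1 to 3 and 15.7, 23.0 and 24.6 TPM in LFD mice 1 to 3. Every HFD-fed mouse was above every LFD-fed mouse on TPM and on log2 CPM (6.38 ± 0.22 and 5.14 ± 0.062, SD, n = 3). The log2 fold change was 1.25 (SE 0.201, 95% interval 0.77 to 1.73), or 2.38-fold, with an unadjusted p of 0.000501 and an adjusted p of 0.170 by edgeR, a value shared with several other genes and the lowest of all those tested. Leaving out each mouse in turn moved it between 1.12 and 1.32. No stretch of 75 bases of its transcripts occurred in another gene. With DESeq2 its adjusted p was 6.29e-05, and it was not called only because the log2 fold change of 1.26 was under the threshold.

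Dnajb1 encodes the main stress-inducible Hsp40 of the cytosol. It was at 14.7, 22.7 and 29.9 TPM in HFD mice 1 to 3 and at 11.5, 13.1 and 19.5 TPM in LFD mice 1 to 3. The diets overlapped on TPM, where LFD mouse 3 was above HFD mouse 1, and not on log2 CPM (5.39 ± 0.19 and 4.58 ± 0.30, SD, n = 3). Dnajb1 had a log2 fold change of 0.80 (SE 0.232, 95% interval 0.25 to 1.36, adjusted p = 0.303 by edgeR).

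Hsp90aa1 and Hsp90ab1 encode the inducible and the constitutive form of cytosolic Hsp90. Hsp90aa1 was at 339, 558 and 644 TPM in HFD mice 1 to 3 and at 297, 266 and 419 TPM in LFD mice 1 to 3. Hsp90ab1 was at 565, 756 and 919 TPM in HFD mice 1 to 3 and at 659, 694 and 784 TPM in LFD mice 1 to 3. For Hsp90aa1 the diets overlapped on TPM in HFD mouse 1 and LFD mouse 3 and did not overlap on log2 CPM (8.78 ± 0.17 and 7.87 ± 0.40, SD, n = 3). For Hsp90ab1 the diets overlapped on TPM and on log2 CPM (9.61 ± 0.13 and 9.34 ± 0.29, SD, n = 3), the lowest and the highest TPM both being HFD-fed mice. Hsp90aa1 had a log2 fold change of 0.88 (SE 0.315, 95% interval 0.13 to 1.63, adjusted p = 0.402 by edgeR) and Hsp90ab1 of 0.25 (SE 0.328, 95% interval -0.53 to 1.03, adjusted p = 0.878 by edgeR). The near copy Gm12346 took between 9.52% and 15.7% as many counts as Hsp90aa1 in each mouse, and 42.8% of the 75-base stretches of Hsp90aa1 occurred in other genes, so its count depends on how RSEM divided the reads.

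Hspb1 encodes Hsp25, a small heat shock protein that holds unfolded proteins without ATP and binds actin filaments. It was at 63.2, 86.5 and 101 TPM in HFD mice 1 to 3 and at 66.0, 71.5 and 119 TPM in LFD mice 1 to 3. The highest TPM was that of LFD mouse 3 and the lowest that of HFD mouse 1, and the diets overlapped on log2 CPM too (5.92 ± 0.13 and 5.70 ± 0.35, SD, n = 3). The log2 fold change was 0.20 (SE 0.236, 95% interval -0.36 to 0.76, adjusted p = 0.856 by edgeR), the smallest of the 10, and it was -0.01 with limma on log2(TPM + 1). The interval leaves out a difference of 1 log2 unit in either direction.

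Hspd1 and Hspe1 encode the barrel and the lid of the mitochondrial chaperonin and start close to each other on opposite strands. Hspd1 was at 252, 394 and 251 TPM in HFD mice 1 to 3 and at 273, 185 and 143 TPM in LFD mice 1 to 3. Hspe1 was at 152, 206 and 180 TPM in HFD mice 1 to 3 and at 175, 130 and 150 TPM in LFD mice 1 to 3. In both genes LFD mouse 1 lay among the HFD-fed mice and HFD mouse 2 was the highest of all on TPM. On log2 CPM, Hspd1 was 9.08, 9.02 and 8.31 in HFD mice 1 to 3 and 9.01, 7.72 and 7.11 in LFD mice 1 to 3, so that LFD mouse 1 stood apart from the other LFD-fed mice. Hspe1 was 7.05, 6.80 and 6.56 in HFD mice 1 to 3 and 7.12, 5.92 and 5.94 in LFD mice 1 to 3. On this scale LFD mouse 1 was thus the highest of all for Hspe1. The log2 fold change was 0.67 for Hspd1 (SE 0.539, 95% interval -0.61 to 1.96, adjusted p = 0.760 by edgeR) and 0.37 for Hspe1 (SE 0.383, 95% interval -0.54 to 1.28, adjusted p = 0.829 by edgeR). Without LFD mouse 1 they were 1.40 and 0.88, and without LFD mouse 3 they were 0.34 and 0.17. With the replicate number as a block they were 0.86 (SE 0.325, unadjusted p of 0.0464) and 0.48 (SE 0.243, unadjusted p of 0.108). The 3 pseudogene copies named after Hspd1 together held 0.242% to 1.36% as many counts as Hspd1 under the HFD and 3.29% to 5.26% under the LFD, and the 5 named after Hspe1 held 0.184% to 1.83% as many as Hspe1.

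**Figure D2:**
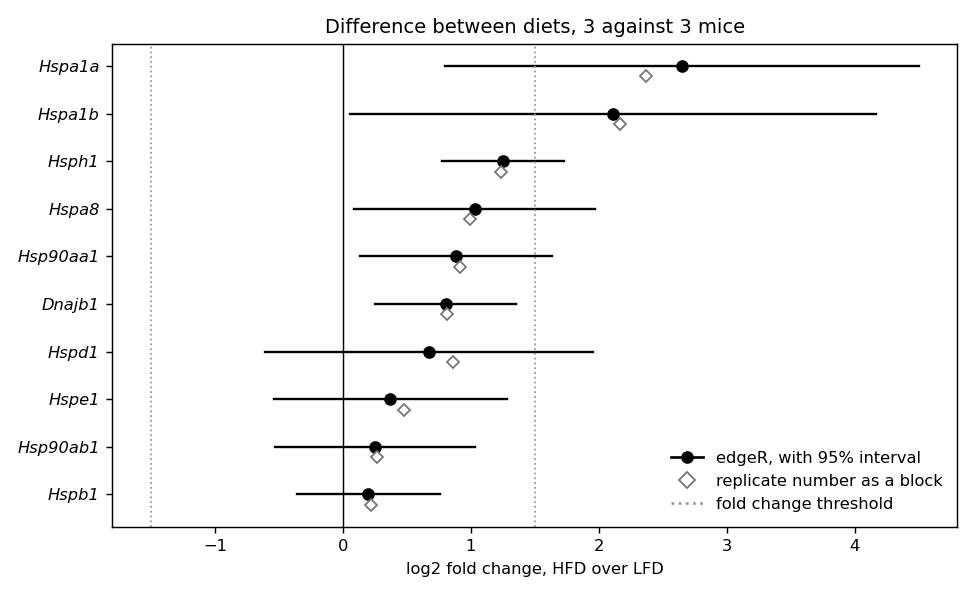
Log2 fold change, HFD over LFD, of each gene (horizontal axis) from edgeR with its 95% interval as a line, and as an open diamond without interval when the replicate number enters as a block. The intervals of Hspa1a, Hspa1b, Hsph1, Hspa8, Hsp90aa1 and Dnajb1 lie above 0, and those of the other 4 genes include 0.

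Ratios between partner genes were then compared within each mouse, because a ratio does not depend on the library size or on the share of mitochondrially encoded RNA. Differences of mean log2 ratios were given an exact two-sided permutation test, in which the 20 ways to split the mice allow no p below 0.1, so that no ratio could pass 0.05. Hsp90aa1 was 0.600, 0.738 and 0.700 times Hsp90ab1 in HFD mice 1 to 3 and 0.451, 0.384 and 0.535 times in LFD mice 1 to 3. All HFD ratios were above all LFD ratios, by 0.58 on the log2 scale (exact permutation p = 0.1, adjusted over the 5 ratios 0.375). The inducible Hsp70 genes together were at 0.742%, 1.69% and 2.94% of Hspa8 in HFD mice 1 to 3 and at 0.274%, 0.746% and 1.32% in LFD mice 1 to 3. This share was higher in the HFD-fed mouse of each replicate number but overlapped between diets (difference 1.26 on the log2 scale, exact permutation p = 0.3, adjusted 0.375). Even in HFD mouse 3 the inducible genes thus stayed far under the constitutive gene per length.

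The other ratios differed less. Hspd1 was 1.66, 1.91 and 1.39 times Hspe1 in HFD mice 1 to 3 and 1.56, 1.42 and 0.956 times in LFD mice 1 to 3 (difference 0.35 on the log2 scale, exact permutation p = 0.3). Hsph1 was at 2.31%, 2.23% and 1.76% of Hspa8 in HFD mice 1 to 3 and at 1.98%, 1.69% and 1.45% in LFD mice 1 to 3 (difference 0.30, exact permutation p = 0.2). Dnajb1 was at 1.15%, 1.14% and 0.892% of Hspa8 in HFD mice 1 to 3 and at 1.45%, 0.965% and 1.15% in LFD mice 1 to 3 (difference -0.16, exact permutation p = 0.4). All 3 overlapped between diets, and the values adjusted over the 5 ratios were 0.375, 0.375 and 0.4. Dnajb1 was the only partner whose mean ratio to Hspa8 was lower in HFD-fed mice.

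**Figure D3:**
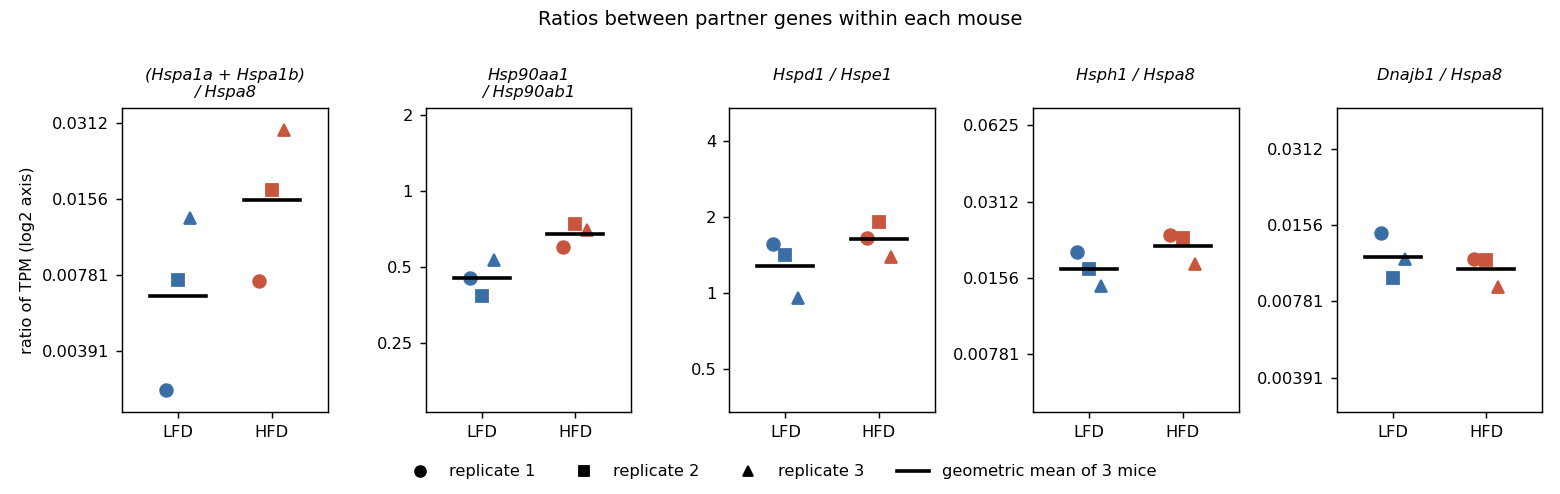
Ratios of TPM between partner genes (vertical axis, log2 scale spanning 4 units in every panel) in each mouse, with the replicate number as the symbol and the geometric mean of each diet as a bar. The ratio of Hsp90aa1 to Hsp90ab1 separates the diets, and the other 4 ratios overlap.

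The genes around these members in the chaperone system were grouped in 9 lists of 97 genes, of which 95 were tested. Some genes, among them Hspa9, Dnaja3, Chordc1 and Cryab, stand in more than 1 list and are counted once in these totals. None of the 95 was called by edgeR, 1 was higher and 8 were lower in HFD-fed mice at an unadjusted p under 0.05, beside 3.86% of all tested genes higher and 6.62% lower, and the median log2 fold change was 0.00072. With the replicate number as a block, 6 were higher and 11 lower at that level, beside 8.75% and 8.76% of all tested genes. DESeq2 called 5 of them, all lower in HFD-fed mice (Cryab, Fkbp5, Hspb2, Hspb6 and Hspb7), beside 1.53% of its genes in that direction. Among the regulators of the response, Hsf1, the main heat shock factor, had a log2 fold change of 0.07. It was at 5.42, 7.90 and 12.2 TPM in HFD mice 1 to 3 and at 5.77, 10.9 and 12.2 TPM in LFD mice 1 to 3. Of the 4 tested heat shock factors and regulators, none passed an unadjusted p of 0.05, and the median was -0.38. The gene with the largest difference among them was Hsf4 (-0.80, adjusted p = 0.688 by edgeR), and Hsf5 was not tested for its low counts. Hsf2 (-0.48, adjusted p = 0.518 by edgeR) was lower in HFD-fed mice without overlap on log2 CPM, beside 9.23% of all tested genes. These values are RNA levels, and the activity of the factors was not measured.

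The lists of partners of Hsp70 and Hsp90 stand beside all tested genes. Of those, 3.86% were higher and 6.62% lower in HFD-fed mice at an unadjusted p under 0.05. Of 11 other Hsp70 and Hsp110 genes none passed an unadjusted p of 0.05 (median 0.23), with the largest difference in Hspa12a (-1.22, adjusted p = 0.681 by edgeR). Of 19 J-domain proteins, which like Dnajb1 stimulate Hsp70, 1 was lower at that level (median -0.10), namely Dnajb5 at 1.72 to 2.37 TPM in HFD-fed and 3.82 to 8.99 TPM in LFD-fed mice (-1.21, adjusted p = 0.335 by edgeR). Of 11 nucleotide exchange and client handover factors, 1 was lower (median -0.34), namely Bag4 at 4.66 to 6.85 and 7.46 to 20.5 TPM (-1.28, adjusted p = 0.474 by edgeR). Without overlap on log2 CPM, Hspa5 (0.64) and Dnajc7 (0.37) were higher and Hspa2 (-0.32) and Dnajb5 lower. Of all tested genes, 6.72% were higher and 9.23% lower without overlap. With the replicate number as a block, Hspa9 and Dnaja3 were higher and Hspa12a, Dnajb5, Bag1 and Bag4 lower at an unadjusted p under 0.05. Of all tested genes, 8.75% and 8.76% were. Of the 15 Hsp90 paralogues and cochaperones (median 0.09), 1 was higher and 2 were lower at an unadjusted p under 0.05 without the block. Chordc1, the higher gene, was at 20.5 to 41.3 against 17.4 to 27.4 TPM (0.66, adjusted p = 0.409 by edgeR). Unc45b, the myosin chaperone of striated muscle, was at 1.67 to 5.62 and 7.03 to 22.2 TPM (-2.26, adjusted p = 0.294 by edgeR). Fkbp5, an Hsp90-binding immunophilin that is induced by glucocorticoids, was at 7.67, 13.4 and 21.6 TPM in HFD mice 1 to 3 and at 68.8, 73.4 and 71.9 TPM in LFD mice 1 to 3. No value of Fkbp5 in one diet came near those of the other (log2 fold change -2.25, SE 0.352, adjusted p = 0.170 by edgeR).

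The small heat shock proteins other than Hspb1 were the group farthest from the members. Of the 5 tested, 4 were lower in HFD-fed mice at an unadjusted p under 0.05, each without overlap between the diets, beside 6.62% of all tested genes lower at that level and 9.23% lower without overlap, and the median log2 fold change was -2.84. Cryab, the crystallin of muscle and lens, was at 12.4, 10.6 and 5.86 TPM in HFD mice 1 to 3 and at 81.4, 123 and 46.5 TPM in LFD mice 1 to 3 (-2.84, adjusted p = 0.191 by edgeR, and 0.0224 with the replicate block). The others were Hspb2 (-4.11, adjusted p = 0.170 by edgeR), Hspb7 (-3.66, adjusted p = 0.170) and Hspb6 (-2.33, adjusted p = 0.177). These genes are strongly expressed in striated muscle, and the skeletal muscle markers given above were lower in the same mice, with Acta1 at 0.68 to 37.9 TPM under the HFD and 486 to 2336 TPM under the LFD and Tnnt3 at 0.31 to 35.2 and 279 to 2052 TPM. Their adjusted p by edgeR was 0.222 and 0.236, and 0.0471 and 0.0312 with the replicate block. The part of muscle RNA in these values was not tested. Hspb3 was not tested for its low counts.

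The remaining lists had no or few genes at an unadjusted p under 0.05. Of all 17668 tested genes, 10.5% passed that level in either direction and 14850 overlapped between the diets on log2 CPM. Of 14 genes of the cytosolic chaperonin and prefoldin, which fold actin and tubulin, none passed an unadjusted p of 0.05, all 14 overlapped between the diets and the median was 0.07, with the largest difference in Pfdn2 (-0.34, adjusted p = 0.846 by edgeR). Of 12 other mitochondrial chaperones and proteases, 11 had a log2 fold change above 0 as Hspd1 and Hspe1 had, but none passed an unadjusted p of 0.05 and all 12 overlapped (median 0.28). With the replicate number as a block, 4 of the 12 (Hspa9, Grpel1, Dnaja3 and Afg3l2) were higher at that level, as was Hspd1, beside 8.75% of all tested genes. The largest difference was that of Dnaja3 (0.90, adjusted p = 0.732 by edgeR). Hspa9, the mitochondrial Hsp70, was at 338, 491 and 222 TPM in HFD mice 1 to 3 and at 336, 203 and 123 TPM in LFD mice 1 to 3, so that LFD mouse 1 again lay among the HFD-fed mice. Of 12 other targets of heat shock factor 1 outside the members, Chordc1 was higher and Cryab lower at an unadjusted p under 0.05, and the median was 0.23. Both genes were already counted in the lists above. With the replicate number as a block, Chordc1 and Hmox1 were higher and Cryab lower at that level, beside 8.75% and 8.76% of all tested genes.

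**Figure D4:**
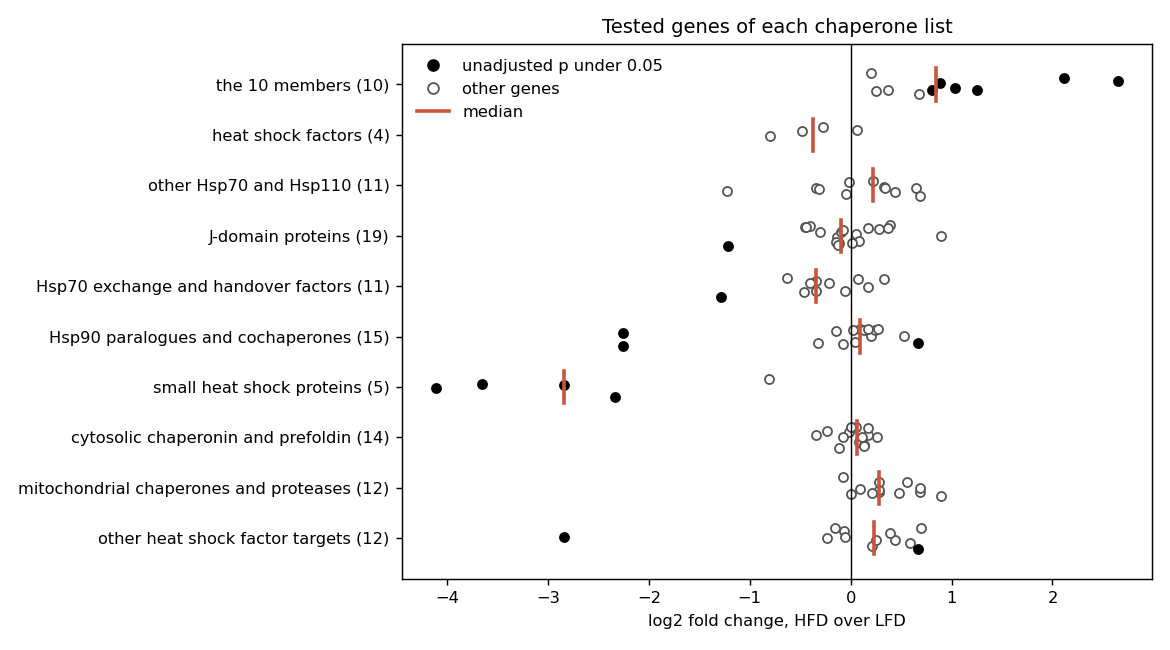
Log2 fold change, HFD over LFD, of each tested gene (points) in the members and the 9 chaperone lists, with the list's median as a bar, filled points for an unadjusted p under 0.05 and the number of tested genes in parentheses. The small heat shock proteins lie below 0, the members above 0, and the medians of the other lists lie between -0.38 and 0.28.

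The genes whose log2 CPM followed Hspa1a most closely over the 6 mice were Fli1 (Pearson's r 0.996), 2310022A10Rik (0.994), Picalm (0.994), Hmgb1-ps5 (0.993) and Apobr (0.993). These values rest on 6 mice, and of the 17668 tested genes 177 outside the members had an r above 0.95. Picalm, which helps to form clathrin vesicles, was at 149, 252 and 313 TPM in HFD mice 1 to 3 and at 146, 241 and 312 TPM in LFD mice 1 to 3, and its log2 fold change was 0.27. For Hspd1, genes among the closest were Dnajc11 (0.995), Igsf21 (0.995), Timm44 (0.995) and Mrpl39 (0.994), among 349 genes above 0.95. Dnajc11, Timm44 and Mrpl39 encode mitochondrial proteins. The share of mitochondrially encoded RNA, which differs between the mice as given above, is common to all points of these correlations, and its part in them was not tested.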

How the data were processed

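BAT RNA of 3 HFD-fed and 3 LFD-fed mice had been depleted of ribosomal RNA, and single-end reads had 75 bases. Per the submitters' processing notes, adapters were removed with Trimmomatic 0.36 and reads were quantified with RSEM 1.3.0 on GRCm38.p4. The authors deposited expected counts, in which a read that matches several genes is divided between them, TPM values, and other columns, of which RSEM's posterior SD of the counts was used. The strand setting of the counting was not given in the sources used here.

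Expected counts were rounded and tested for all genes with edgeR 4.0.16 (quasi-likelihood, TMM, its own filter on low counts, Benjamini-Hochberg adjustment) in R 4.3.3. Log2 CPM used a prior count of 2. DESeq2 1.42.0, limma 3.58.1 on log2(TPM + 1), RLE size factors, other filters, removal of mitochondrially encoded genes, summing of Hspa1a and Hspa1b, and each mouse left out in turn were alternatives. P-values measure the spread between mice, and intervals cover no error of read assignment. Ratios were tested with SciPy 1.17.1. The code was tested on simulated data. Same-diet libraries were not repeats (chi-square of 79.7 to 621 for each degree of freedom).

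Replicate numbers 1 to 3 occur in both diets. Deviations from the diet mean correlated across genes in all 3 same-number pairs (r 0.229 to 0.522, and -0.528 to 0.0532 in the other 6), so the number was tried as a block. The sources do not say that these mice were matched.

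The members, lists and alternatives were chosen with earlier results of these data known. Text names all members, from each chaperone list and the immediate early genes the genes at an unadjusted p under 0.05 (at most 4, otherwise the largest difference), the 2 most abundant markers of cell types where a result turns on them, and the 5 genes most correlated with Hspa1a and with Hspd1, of which 1 is not reported here. Adipoq, Plin1, Hsf1, Hsf2, Hspa2, Hspa5, Hspa9, Dnajc7, Bag1, Grpel1, Afg3l2, Hmox1 and the near copies Gm26825, Gm12346 and Gm10501 were added after their values were seen.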

Additional observations from a re-analysis of the deposited data

How the results depend on the processing

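No member was called at both thresholds with DESeq2, RLE size factors, other filters, the replicate block, removal of mitochondrially encoded genes, limma or a mouse left out. At an adjusted p under 0.05 without a limit on the fold change, the main edgeR fit passed 0 members. At that looser threshold DESeq2 passed 3 (Hsph1, Hspa1a and Hspa8), beside 1.13% of its genes in that direction, and edgeR with the replicate block passed Hspa1b. Over all genes, 412 were called with DESeq2 and 1 with limma on log2(TPM + 1), against 0 with edgeR (1851 at an unadjusted p under 0.05), and 5 genes of the chaperone lists were called with DESeq2. With 412 calls against 0, the choice of tool decided whether genes were called at all, and the cause was not tested. The number of members at an unadjusted p under 0.05 was 1 with limma (Hsph1) and between 3 and 6 with a mouse left out, and the number of members without overlap was 1 on TPM. Of 140 refits of single members 139 kept their direction and none was called. The exception was Hspb1, at -0.00586 with limma. The median over all genes was -0.18 with limma and -0.05 with edgeR. With the replicate block, 7 members passed an unadjusted p of 0.05 and Hspa1b reached an adjusted p of 0.0306 by edgeR. The block also brought 184 genes (1.04%) to an adjusted p under 0.05, against 0 without it, among them Cryab, and brought none past both thresholds. The ratios kept their sign with counts in place of TPM and with a mouse left out (0.64 to 1.79 for inducible to constitutive Hsp70, 0.46 to 0.70 for Hsp90aa1 to Hsp90ab1, 0.14 to 0.49 for Hspd1 to Hspe1, 0.19 to 0.42 for Hsph1 to Hspa8, and -0.30 to -0.0024 for Dnajb1 to Hspa8). Within same-number pairs, Dnajb1 to Hspa8 was higher in the HFD-fed mouse of 1 pair, and each other ratio in all 3. Hspa1a and Hspa1b had 54 counts each in LFD mouse 1, where counting error is largest among the members.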

Other observations

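Immediate early genes, which are transcribed soon after a stimulus without new protein synthesis, were examined beside the heat shock genes. Of 15 such genes, 7 were higher and 1 was lower in HFD-fed mice at an unadjusted p under 0.05, beside 3.86% and 6.62% of all tested genes, and the median log2 fold change was 0.78. Atf3, a transcription factor of the stress response, was at 19.5, 55.3 and 82.0 TPM in HFD mice 1 to 3 and at 0.98, 13.6 and 14.4 TPM in LFD mice 1 to 3 (2.88, adjusted p = 0.215 by edgeR, and 0.0403 with the replicate block). Fos was at 17.6, 39.4 and 63.8 TPM in HFD mice 1 to 3 and at 2.59, 14.4 and 22.7 TPM in LFD mice 1 to 3 (1.98, adjusted p = 0.296 by edgeR). In both genes mouse 1 was the lowest and mouse 3 the highest of each diet on TPM, as for Hspa1a and Hspa1b. This order also held for Hspa8, Hsp90ab1, Hspb1, Hsph1, Dnajb1 and Picalm, though not for Hsp90aa1, Hspd1 and Hspe1. The share of mitochondrially encoded RNA ran the other way in both diets, and its part in this order was not tested. The other 2 immediate early genes with the smallest p, beside Atf3 and Fos, were Egr2 (1.71, adjusted p = 0.215 by edgeR) and Btg2 (0.94, adjusted p = 0.326). Klf4, the gene that was lower, was named after its values were seen, at 14.6, 24.1 and 18.3 TPM in HFD mice 1 to 3 and at 20.9, 50.7 and 81.0 TPM in LFD mice 1 to 3.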
